A study of Mus musculus with 6 samples.

Results

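The stretches of mouse liver chromatin around Fkbp5, around the metallothionein genes Mt1 and Mt2, and in a window labelled Sgk1 were followed from the fed to the fasted state by DNase I sequencing. DNase I cuts accessible DNA, so a local excess of cuts (a hotspot) marks open chromatin such as promoters and enhancers. Livers came from C57BL/6 mice, an inbred laboratory strain, that either ate freely (3 libraries) or had no food for 24 h (3 libraries), all killed at the start of the light phase. The labels give no sex, age or genetic change. Nothing in them says that replicates are separate animals: the p-values therefore rest on the spread between these libraries, which may be technical. In whole liver, fewer cells with an open site and less opening per cell cannot be told apart.

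Members were taken by position. Hotspots of the 6 libraries that shared at least 1 bp were merged into 75169 union regions, and the members are the 39 regions that overlap chr17:28480000-28680000 (Fkbp5, 23 regions), chr8:96650000-96760000 (Mt1 and Mt2, 11 regions) or chr10:21530000-21680000 (Sgk1, 5 regions), all in the mm9 build. Each region was given, per library, the largest of the maximum tag densities among the hotspots it holds. Of the 39 members, 19 were called in all 6 libraries (12 in the Fkbp5, 7 in the Mt1 and Mt2 and 0 in the Sgk1 window) and could be tested among the 37044 such shared regions of the genome. Where a list lacks a region, its density is unknown and was not taken as 0.

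Glucocorticoids are steroid hormones of the adrenal cortex whose level in blood rises in fasting. They bind the glucocorticoid receptor, a transcription factor that enters the nucleus and binds glucocorticoid response elements, inverted repeats found in promoters and more often in distant enhancers. Fkbp5 encodes FKBP51, a co-chaperone of the receptor that lowers its affinity for hormone and so acts in a feedback loop. Mt1 and Mt2 encode small zinc- and copper-binding proteins that are induced in liver by glucocorticoids, by metals acting through metal response elements and the factor MTF1, and by inflammation. Sgk1 encodes a serum- and glucocorticoid-induced protein kinase of the insulin and PI3-kinase pathway, best known for control of sodium channels.

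Promoter sequences of all 4 genes were available from RefSeq on the GRCm38.p6 build, in 9 entries of 300 bases (250 before and 50 after a start site), 6 of them for Sgk1. They were searched for the letters of known kinds of control element. Their coordinates are of another build than the hotspots, so no hotspot was placed on them. A full glucocorticoid response element, searched as GNACANNNTGTNC (the same on both strands), was found in 2 of the 9, the Mt1 entry and the fifth Sgk1 entry. The same letters occur in 0.475% of 32851 promoters of this length. A loose pattern for the core of the metal response element, TGCNCNC on either strand, matched 5 of the 9 entries and 51% of all promoters. Its open bases (N) take any letter, so a match need not be a metal response core. The pattern occurred 3 times in the Mt1 entry, 6 times in the Mt2 entry and 3 times in the sixth Sgk1 entry. The fourth Sgk1 entry and the Fkbp5 entry held 1 each. Copies per promoter were not counted over all promoters. Capitals below mark these 2 motifs, and bases are counted from 1 at the 5′ end. The entries are Mt1 at chr8:94178839-94179138 (plus strand), Mt2 at chr8:94172368-94172667 (plus strand) and Sgk1 at chr10:21993640-21993939 (plus strand), all on GRCm38.p6. They are shown because Mt1 and the Sgk1 entry hold the receptor's element and Mt2 lies next to Mt1.
Mt1: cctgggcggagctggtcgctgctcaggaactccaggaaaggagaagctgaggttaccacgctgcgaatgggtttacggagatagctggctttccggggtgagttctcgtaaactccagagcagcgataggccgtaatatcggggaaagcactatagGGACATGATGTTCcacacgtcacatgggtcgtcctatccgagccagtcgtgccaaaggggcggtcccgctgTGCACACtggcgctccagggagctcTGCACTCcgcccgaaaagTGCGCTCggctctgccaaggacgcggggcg
Mt2: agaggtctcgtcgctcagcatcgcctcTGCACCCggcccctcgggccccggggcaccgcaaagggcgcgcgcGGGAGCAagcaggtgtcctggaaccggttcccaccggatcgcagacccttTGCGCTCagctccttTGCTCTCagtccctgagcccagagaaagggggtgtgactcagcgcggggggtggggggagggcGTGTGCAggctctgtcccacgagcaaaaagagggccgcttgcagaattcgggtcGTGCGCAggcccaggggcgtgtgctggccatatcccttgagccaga
Sgk1: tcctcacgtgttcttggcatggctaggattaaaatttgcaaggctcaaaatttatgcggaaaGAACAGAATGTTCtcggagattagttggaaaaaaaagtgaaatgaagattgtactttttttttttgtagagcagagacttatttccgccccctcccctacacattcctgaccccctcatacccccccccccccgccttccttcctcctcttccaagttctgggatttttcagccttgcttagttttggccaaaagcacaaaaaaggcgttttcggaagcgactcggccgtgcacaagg

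In the Mt1 entry the receptor's element lies at bases 157 to 169. Matches to the metal response pattern lie at 228 to 234, 253 to 259 and 271 to 277. In the Sgk1 entry the receptor's element lies at bases 63 to 75, overlapped on each side by the 6-base arm AGAACA. That arm occurs on either strand in 3 of the 9 entries and in 19% of all promoters. Searches for the cAMP response element TGACGTCA (1.79% of all promoters) matched 0 of the 9 entries, and its core TGACG (20.8%) matched 2, the Mt1 entry and the second Sgk1 entry. The single Fkbp5 entry held no receptor element and 1 match to the metal response pattern in these 300 bases. A match is a description of the letters, not evidence of binding.

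Accessibility rose at 8 of the 19 shared members and fell at 2 after fasting (limma, Benjamini-Hochberg adjusted p under 0.05 over all shared regions). All 3 changed regions of the Mt1 and Mt2 window rose, while the Fkbp5 window held 5 regions that rose and 2 that fell. The count of risen regions in the Mt1 and Mt2 window was 1 without fed replicate 2 or without fasted replicate 1, and that of fallen regions in the Fkbp5 window was 1 without fed replicate 3 or without fasted replicate 3. Across the genome 7.89% of shared regions rose and 7.84% fell, against 42.1% and 10.5% of these members, so the share that fell was near the background. The members were chosen with earlier results of these data known, and the 19 regions are neighbours within 2 windows. The higher share that rose may follow from that choice and was not tested. Without centring, 37.9% of all changed regions were risen ones, against 50.1% with it. Taken as fasted minus fed, log2 fold changes had a median of 0.40 over the 12 shared regions of the Fkbp5 window and of 0.53 over the 7 of the Mt1 and Mt2 window, beside 0.035 for all shared regions. Fold changes were computed on log2(density + 1), with the median of the shared regions subtracted per library. After centring, every fasted library stood above every fed one at 8 of the 19 members and below at 3, against 16.8% and 14.6% of all shared regions.

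**Figure D1:**
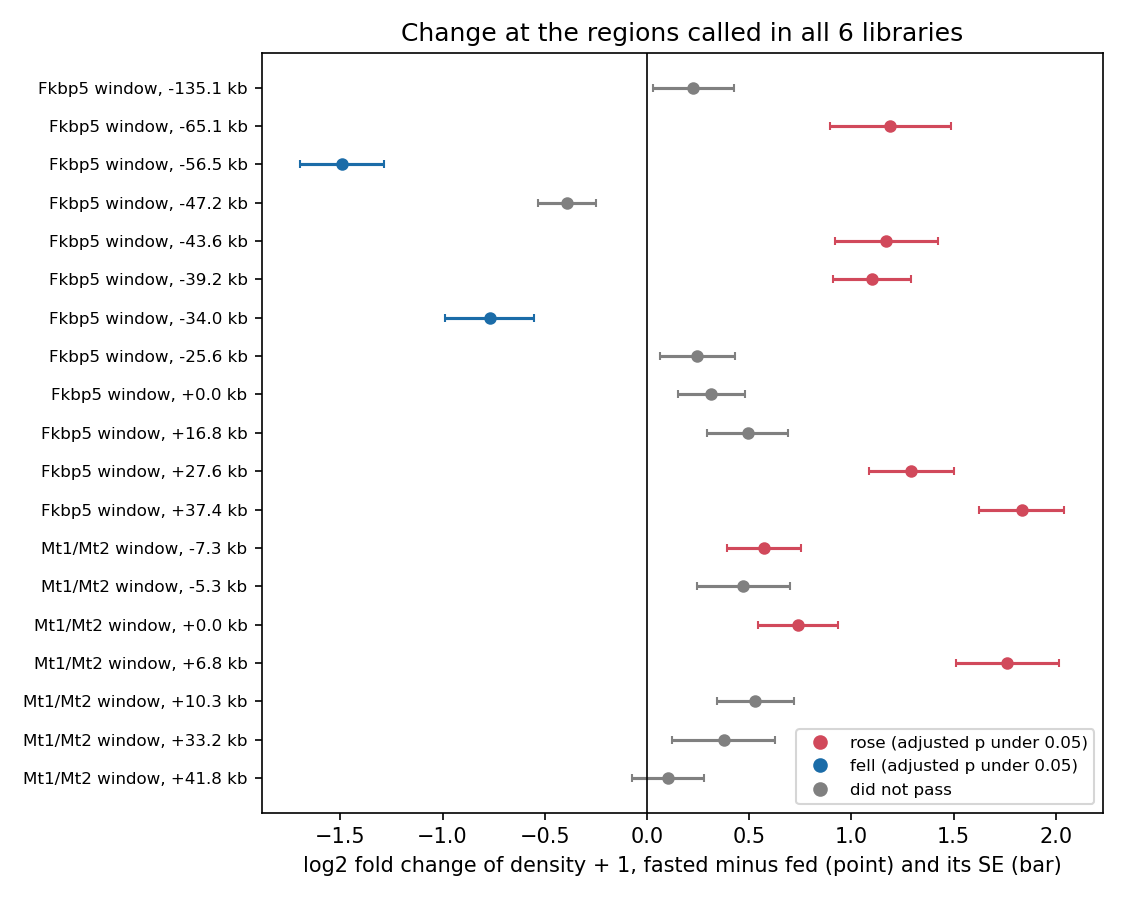
Log2 fold change of density + 1 (fasted minus fed, 3 libraries each) at the 19 regions called in all 6 libraries, by distance of each region's centre from that of the strongest region of its window; bars are the SE of the limma fit and red, blue and grey points are regions that rose, fell or did not pass. The Mt1 and Mt2 points all lie above 0, while in the Fkbp5 window the points at -56.5, -47.2 and -34.0 kb lie below 0 among risen neighbours.

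The Fkbp5 window held 5 risen regions, which lay in 3 places. RefSeq places Tulp1 and Armc12 as the nearest protein-coding neighbours of Fkbp5, and the window may hold sites of theirs, since no mm9 gene annotation was used here. The largest rise was at chr17:28659294-28660869, where the density was 15.4, 10.1 and 12.1 in fed and 43.4, 50.7 and 39.7 in fasted replicates 1 to 3. The lowest fasted library stood far above the highest fed one, a rise from 12.6 ± 2.69 to 44.6 ± 5.63 (SD, n = 3 each) or 1.83 on the log2 scale (SE 0.21, adjusted p = 3.1e-06, limma). This is rank 46 from the top among the 37044 shared regions. The region stood at the 15.2 to 29.5 percentile of shared regions in fed libraries and at the 67.0 to 79.6 percentile in fasted ones.

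A stronger risen site lay 7.97 kb to its left at chr17:28649312-28651319. Its density was 51.9, 28.9 and 53.6 in fed and 123, 104 and 82.9 in fasted replicates 1 to 3, with no overlap between the groups. In limma the difference of log2 densities was 1.29 (SE 0.21) with adjusted p = 0.00016, and it was 1.03 without fed replicate 2, the lowest library, where the call held. Between these sites lay 2 weaker regions, at 28654284 and 28655694, that every fasted library called. Fed replicate 3 was the only fed library to call either. Fed replicates 1 and 2 were the shallowest libraries, at relative depths of 1.02 and 1.0 inferred from the step of the density scale. Fed replicate 3 (1.64) was deeper than fasted replicates 1 and 3 (1.32 and 1.24). Depth was not tested as a cause of the missing calls. At 28654284 the density was 11.9 in fed replicate 3 and 19.3, 38.3 and 16.6 in fasted replicates 1 to 3.

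A pair of neighbouring sites in the left part of the window also rose, 2.79 kb apart. At chr17:28578228-28579874 the density was 10.7, 8.24 and 16.0 in fed and 22.7, 32.4 and 21.8 in fasted replicates 1 to 3. At chr17:28582668-28584344 it was 25.4, 19.1 and 30.4 in fed and 47.9, 45.8 and 60.8 in fasted replicates 1 to 3. Neither site had overlapping groups, and the log2 fold changes were 1.17 (SE 0.25, adjusted p = 0.0025) and 1.1 (SE 0.19, adjusted p = 0.00039, limma). Right beside them, the region at 28584413 was called by all fasted libraries (15.0, 13.8 and 10.3). Among the fed ones it was called by replicate 3 alone (7.32). Here too the fed libraries without a call were the shallowest, and depth was not tested as a cause.

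The fifth risen site was less even among libraries. At chr17:28556766-28558359 the density was 20.2, 9.37 and 20.8 in fed and 43.1, 47.8 and 21.8 in fasted replicates 1 to 3. Fasted replicate 3 stood only just above fed replicates 1 and 3, and after centring the groups overlapped. The change on the log2 scale was 1.19 (SE 0.30), at an adjusted p of 0.0080 (limma), and leaving out each library in turn gave 0.85 (without fed replicate 2, adjusted p = 0.05) to 1.59.

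Falls lay between the rises. At chr17:28565533-28566773, 7.17 kb from the uneven risen site, the density was 44.1, 34.1 and 39.6 in fed and 11.9, 14.4 and 11.5 in fasted replicates 1 to 3. Every fasted library stood below every fed one, a drop from 39.3 ± 5.03 to 12.6 ± 1.57 (SD, n = 3 each) or -1.49 on the log2 scale (SE 0.20, adjusted p = 2.8e-05, limma). Within each library, this region was 1.90 to 3.64 times as high as the uneven risen site in the fed livers and 0.276 to 0.528 times as high in the fasted livers, a ratio that needs no scaling between libraries. That pair was chosen after the values were seen.

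The other fallen region, chr17:28588044-28589280, lay 3.70 kb to the right of the risen site at 28582668. It had densities of 23.2, 22.9 and 28.4 in fed and 16.5, 12.8 and 11.2 in fasted replicates 1 to 3, without overlap. In limma the difference of log2 densities was -0.77 (SE 0.22) with adjusted p = 0.018. This call was lost without fed replicate 3 (log2 fold change -0.64, adjusted p = 0.10), without fasted replicate 3 (-0.60, adjusted p = 0.099), with average in place of maximum density (-0.49, adjusted p = 0.065) and with missing values set to the lowest density (-0.66, adjusted p = 0.092).

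**Figure D2:**
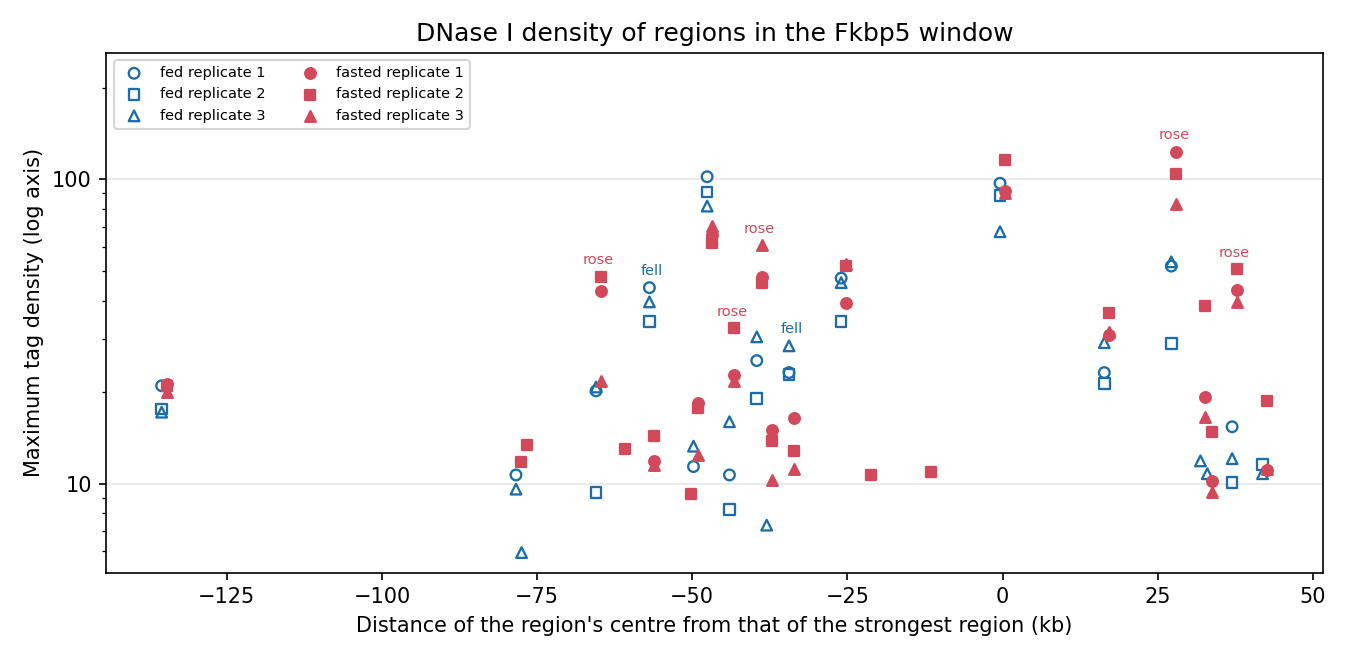
Maximum tag density (log axis) of the 23 regions of the Fkbp5 window against the distance of each region's centre from that of the strongest one (kb), with 1 symbol per library that called the region (open blue, fed; filled red, fasted; the groups are set slightly apart sideways) and the calls written above. Risen regions stand at -65.1, -43.6, -39.2, 27.6 and 37.4 kb, fallen ones at -56.5 and -34.0 kb, and the strongest region, at 0, has overlapping groups.

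The strongest site of the Fkbp5 window did not pass. It lies at chr17:28621701-28623652, and its density was 97.1, 88.4 and 67.3 in fed and 91.9, 116 and 90.5 in fasted replicates 1 to 3. The groups overlapped, and limma gave a difference of 0.32 on the log2 scale (SE 0.16, adjusted p = 0.22). Relative to this site in the same library, the risen region at 28659294 went from 0.114 to 0.180 in the fed livers to 0.438 to 0.472 in the fasted livers. The fallen region at 28565533 went from 0.386 to 0.588 to a narrow 0.124 to 0.130. These ratios were also chosen after the values were seen.

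Next in strength was chr17:28574713-28576197, the region nearest the threshold among those that did not pass. Its density was 102, 91.0 and 81.7 in fed and 65.8, 61.6 and 70.5 in fasted replicates 1 to 3. Every fasted library lay below every fed one, but the log2 fold change of -0.39 (SE 0.14) had an adjusted p of 0.065 (limma). It passed with quantile normalization (-0.50, adjusted p = 0.018) and when only the upper 50% of regions by density were tested (-0.47, adjusted p = 0.025). The nearest region inside the threshold was 28588044, described above.

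The remaining 3 shared regions of the Fkbp5 window did not pass, with log2 fold changes of 0.23 (28486764), 0.25 (28596288) and 0.49 (28639059). At the last of these the density was 23.2, 21.4 and 29.1 in fed and 30.9, 36.5 and 31.5 in fasted replicates 1 to 3, without overlap, but its adjusted p was 0.10 (limma). Another 11 regions of the window were missing from at least 1 list, at densities of 5.95 to 38.3. Of these, 4 were called in a single library, in each case fasted replicate 2, the deepest, which also called 6684 of the 14627 single-library regions of the genome. The region at 28572887 was missing only from fed replicate 2 and had a log2 fold change of 0.44 (adjusted p = 0.32) in a fit that drops that library, and the region at 28664628, missing only from fed replicate 1, had 0.28 (adjusted p = 0.61) in the fit without it (limma).

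The metallothionein window gained density around 2 neighbouring strong sites. RefSeq orders the genes here as Mt4, Mt3, Mt2, Mt1 and then Nup93, a nuclear pore gene, so the window may hold sites of genes other than Mt1 and Mt2. The largest rise was at chr8:96702464-96704232, where the density was 36.0, 19.5 and 33.6 in fed and 87.9, 143 and 68.1 in fasted replicates 1 to 3. The groups were far apart, though the fasted libraries differed widely among themselves, and the mean went from 29.7 ± 8.95 to 99.7 ± 38.8 (SD, n = 3 each). The change on the log2 scale was 1.76 (SE 0.25), at an adjusted p of 4.3e-05 (limma), rank 56 from the top of the 37044 shared regions. In fed libraries the site stood at the 42.0 to 64.3 percentile of shared regions, and in fasted libraries at the 82.9 to 97.7 percentile.

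Relative depth, inferred from the step of the density scale, was not tested as a cause of the rise at 96702464. Fasted replicate 2, at 1.90 times the depth of the shallowest library, had the highest density of this site, and the shallowest library, fed replicate 2, had the lowest. Fed replicate 3, at a relative depth of 1.64, had 33.6, below fasted replicates 1 and 3 (87.9 and 68.1), whose depths were 1.32 and 1.24. With relative depth as a covariate the log2 fold change was 1.45, without fasted replicate 2 it was 1.41 and without fed replicate 2 it was 1.51, and each of these passed. The covariate also lowered the log2 fold change of every other risen member, for example from 1.17 to 0.85 at 28578228. Both fallen members fell further with it, for example from -1.49 to -1.61 at 28565533.

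The strongest site of the window lay 4.0 kb to the left, at chr8:96694733-96698458, in a broad region of 3726 bp that some lists split into as many as 3 hotspots. Its density was 66.9, 42.7 and 73.5 in fed and 106, 107 and 76.0 in fasted replicates 1 to 3. Fasted replicate 3 was close to fed replicate 3, and after centring the groups overlapped. In limma the difference of log2 densities was 0.74 (SE 0.20) with adjusted p = 0.012. The call was lost without fed replicate 2 (0.52, adjusted p = 0.092), without fasted replicate 1 (0.68, adjusted p = 0.059), with average density (0.51, adjusted p = 0.086) and without the mean-variance trend (adjusted p = 0.055).

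The ratio between both strong sites was also followed. Within each library the region at 96702464 was 0.456 to 0.538 times as high as that at 96694733 in the fed livers and 0.833 to 1.34 times as high in the fasted livers. In fasted replicate 2 it was the higher of the pair. The pair was picked after its values were seen, and no test was made.

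Another site rose on the left, at chr8:96688712-96689906, from 32.4, 25.1 and 32.7 in fed to 44.5, 41.0 and 42.4 in fasted replicates 1 to 3. The groups did not overlap, and limma gave a difference of 0.57 on the log2 scale (SE 0.18, adjusted p = 0.033), the nearest to the threshold of those that passed in this window. The call was lost in 9 of 18 alternatives, the replicate block (adjusted p = 0.060), no centring (adjusted p = 0.096) and relative depth (adjusted p = 0.076) among them, with log2 fold changes of 0.45 to 0.68 over all 18. On the other side of the threshold, the region at chr8:96706099-96707679, 1.87 kb to the right of the most risen site, had 38.2, 35.2 and 55.8 in fed and 57.0, 61.8 and 56.6 in fasted replicates 1 to 3. The difference on the log2 scale was 0.53 (SE 0.19), at an adjusted p of 0.060 (limma). Without fed replicate 3, the highest of the fed libraries there, it was 0.76 (adjusted p = 0.012).

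**Figure D3:**
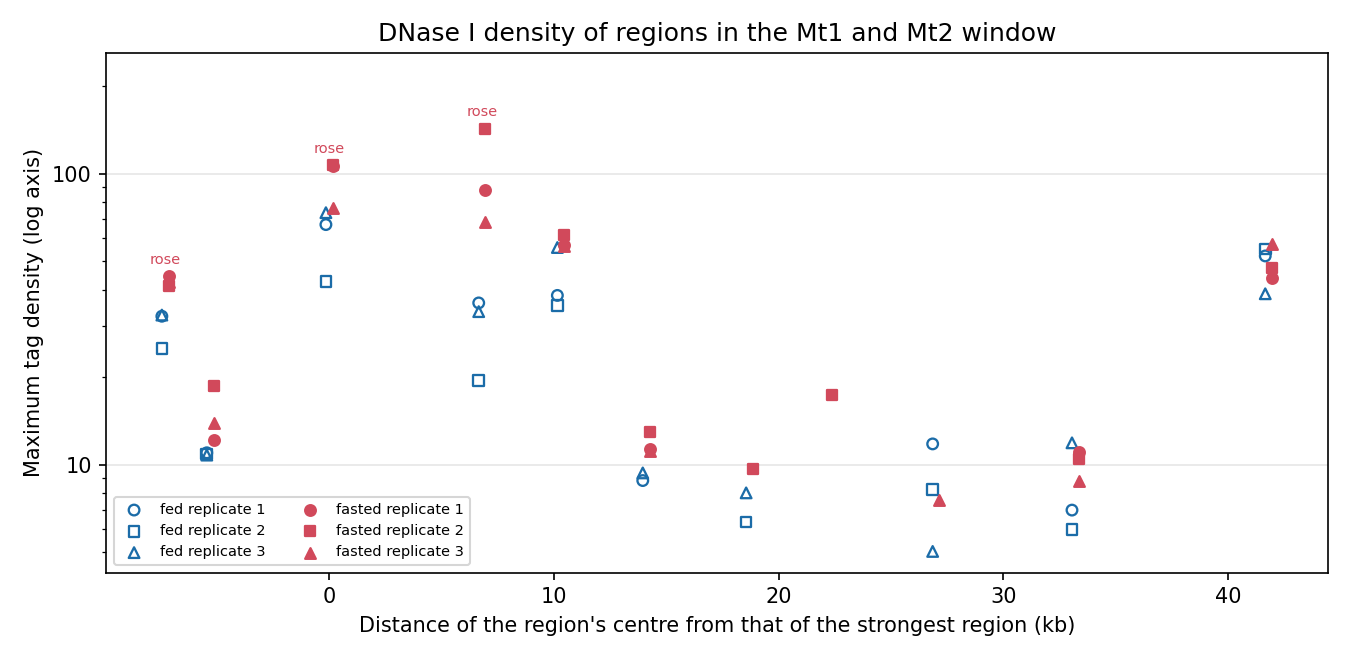
Maximum tag density (log axis) of the 11 regions of the Mt1 and Mt2 window against distance from the centre of the strongest region (kb), with 1 symbol per library that called the region (open blue, fed; filled red, fasted; the groups are set slightly apart sideways). The 3 risen regions at -7.3, 0 and 6.8 kb are marked; the region at 41.8 kb has mixed symbols.

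The right end of the window held no region that passed. At chr8:96737871-96739009 the density was 52.2, 55.1 and 38.7 in fed and 43.7, 47.6 and 57.2 in fasted replicates 1 to 3, with overlapping groups and a difference of 0.10 on the log2 scale (SE 0.17, adjusted p = 0.76, limma). The weak shared regions at 96690875 and 96729375 had log2 fold changes of 0.47 (adjusted p = 0.18) and 0.37 (adjusted p = 0.36, limma). All 7 shared regions of the window had a positive log2 fold change, as had 20093 of the 37044 shared regions of the genome. The 4 regions not called everywhere had densities of 5.04 to 17.4. Of these, 96710188 was missing only from fed replicate 2 and had a log2 fold change of 0.43 (adjusted p = 0.31, limma) in a fit that drops that library.

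The Sgk1 window held only weak sites, and none could be tested over all 6 libraries. Its 5 regions had densities of 1.58 to 8.46, beside a median of 23.7 over shared regions of the genome, and fed replicate 2 called none of them. At chr10:21609066-21609675 the density was 6.25 and 6.87 in fed replicates 1 and 3 and 7.09, 4.34 and 5.75 in fasted replicates 1 to 3. The neighbour at chr10:21609984-21610635 had 8.46 and 5.49 in fed replicates 1 and 3 and 4.26, 5.92 and 5.45 in fasted replicates 1 to 3. The groups overlapped at both. In the fit that drops fed replicate 2, their log2 fold changes were -0.10 (SE 0.25, adjusted p = 0.86) and -0.26 (SE 0.26, adjusted p = 0.61, limma). The heights of these 2 regions were 15 to 30 tags, if 1 step of the density scale is 1 tag.

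The strong open chromatin nearest the Sgk1 window lay outside it. Where in mm9 the start sites of the 6 RefSeq entries of Sgk1 fall was not determined, so the label of the window could not be checked and it is described by its position. Widening the windows by 50 kb on each side added 2 shared regions on the right. At chr10:21721035-21722047, 41.0 kb beyond the edge, the density was 43.4, 46.1 and 52.9 in fed and 79.4, 63.0 and 90.5 in fasted replicates 1 to 3. All fasted libraries were above all fed ones, and the region rose by 0.76 on the log2 scale (SE 0.16, adjusted p = 0.0022, limma). At chr10:21712483-21715687, a broad region of 3205 bp and 32.5 kb beyond the edge, the density was 34.9, 39.0 and 34.1 in fed and 38.0, 48.3 and 44.5 in fasted replicates 1 to 3. Its groups overlapped as deposited, every fasted library stood above every fed one after centring, and it did not pass (log2 fold change 0.34, SE 0.18, adjusted p = 0.23).

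**Figure D4:**
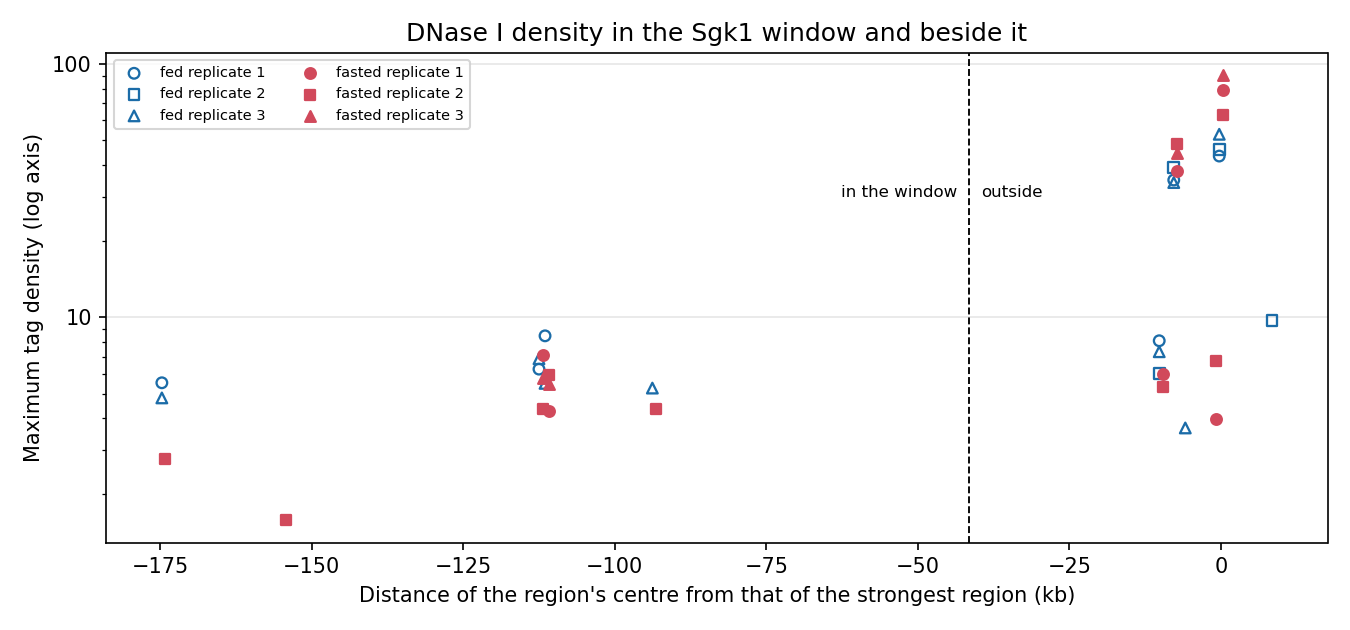
Maximum tag density (log axis) of the 5 regions of the Sgk1 window (left of the dashed line) and of the 6 regions within 50 kb of its right edge, against distance from the centre of the strongest region (kb), with 1 symbol per library that called the region (open blue, fed; filled red, fasted; the groups are set slightly apart sideways). Regions in the window stay under 10, while the regions at -7.5 and 0 kb, outside it, reach 34.1 to 48.3 and 43.4 to 90.5.

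For the most risen site of each of these 2 windows, the members with the nearest profile over the 6 libraries were listed. The measure was the root mean square difference of centred log2 densities, each region set to its own mean, between a leading site and the other 18 shared members. For the Fkbp5 site at 28659294 the closest was the Mt1 and Mt2 site at 96702464 (0.26), followed by 28649312 of its own window (0.36). For 96702464 the next closest after 28659294 was 28556766 of the Fkbp5 window (0.36). Both leading sites were chosen for the size of their rise, which the profiles contain, so their nearness follows in part from that choice and is given with no test.

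No member was called throughout 1 group and nowhere in the other. Of the 39 members, 0 were called in all 3 fasted and no fed library and 0 in all 3 fed and no fasted library, against 1.17% and 1.57% of all union regions. Without fed replicate 3, 3 members were called in all fasted and no fed library, and without fasted replicate 3, 1 was called in all fed and no fasted library. The share of all union regions was not computed for these smaller sets of libraries, so these counts have no background to be read against. All 6 members called in a single library were called by fasted replicate 2, beside 6684 of 14627 such regions of the genome. The number of hotspots in a window and the length they covered were compared over libraries, in a design too small for a p under 0.05. In the Fkbp5 window the length was 14.9 ± 4.27 kb in fed and 20.8 ± 5.06 kb in fasted libraries (SD, n = 3 each; two-sided exact permutation p = 0.3, adjusted p = 0.6 over 6 comparisons). In the Mt1 and Mt2 window it was 7.88 ± 2.26 and 10.8 ± 2.15 kb (exact permutation p = 0.3, adjusted p = 0.6), and in the Sgk1 window 1.29 ± 1.20 and 1.48 ± 1.05 kb (exact permutation p = 0.9, adjusted p = 1). With 3 libraries against 3 this exact permutation test cannot go below p = 0.1.

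The libraries held 49682 to 63476 hotspots each, and relative depth ranged from 1 (fed replicate 2) to 1.90 (fasted replicate 2), with fed replicate 3 at 1.64. Shared members in the Fkbp5 and the Mt1 and Mt2 windows had a median density of 28.7 and 49.1. At the leading Fkbp5 site the heights were 27 to 53 tags in fed and 131 to 257 tags in fasted libraries. The tissue label was not checked against liver genes, since no mm9 gene positions were used.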

How the data were processed

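DNase I sequencing was made from fresh liver nuclei of 3 samples of fed and 3 of fasted mice. Digestion, per the labels' protocols, used 40 U/ml of enzyme and fragments of 100 to 500 bp were kept. The submitters' processing notes name CASAVA 1.8 and mm9. Not given in the sources used here are the aligner and the hotspot program of the authors. Every sample has a hotspot list of its own. Per the file headers, the authors deposited a maximum and an average tag density (a signal), a z-score (a score) and a p-value for each hotspot. The score and the p-value of the authors were not used. The scale of the signal is not stated, but every maximum was a whole multiple of 1 step per library (100% within 0.05 step). Relative depth was taken from this step, on the assumption of 1 tag per step and of scaling to library totals.

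Hotspots of chromosomes 1 to 19 and X were merged at 1 bp overlap. Regions called in all 6 libraries were fitted with limma 3.58.1 (R 4.3.3, mean-variance trend) on log2(maximum density + 1), centred on each library's median, with Benjamini-Hochberg adjustment and a threshold of 0.05. The fit covered all groups and was also run on simulated data with the same spread at every region. Such data cannot check the mean-variance trend or differences in depth, and their outcome is not given here. Heights are not counts, so no count model was used. Alternatives were average density, pseudocounts of 0.1 and 10, quantile normalization, no centring, the lowest density for missing values, the upper 50% by density, no trend, a replicate block, depth as a covariate, a 50% cover rule, merging within 150 bp, windows widened by 50 kb, shortened lists and leaving out each replicate.

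The members, the named regions and the lists were chosen with earlier results of these data known. Named regions are all members past the threshold, the strongest of each window, those called in 1 group only, and the nearest to the threshold on each side. Other glucocorticoid target genes were not analysed here, since no mm9 annotation was used. Python 3.11.15 was used with pandas 2.3.3 and numpy 2.4.6 for tables and with matplotlib 3.10.9 for plots.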

Additional observations from a re-analysis of the deposited data

How the results depend on the processing

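No named region changed direction under any alternative in which it could be tested. Of 224 values of the 13 named regions, 204 kept their side of the threshold and 20 did not, all 20 at the 5 regions 28574713, 28588044, 96688712, 96694733 and 96706099. The number that rose in the Fkbp5 window was 5 without each replicate, and the number that fell was 1 to 2. In the Mt1 and Mt2 window 1 to 4 rose, with 1 without fed replicate 2 or fasted replicate 1, and 0 fell. With hotspots covering at least 50% of a region, 1 rose and 1 fell of the 5 Fkbp5 regions still tested, and 1 rose of 4 in the Mt1 and Mt2 window, since fewer regions qualify. The leading sites at 28659294 and 96702464 and the fallen region at 28565533 could not be tested under that rule. Nor could the risen regions at 28556766, 28578228, 28649312 and 96694733 or the strongest Fkbp5 region at 28621701. The 224 values hold none for them there. Fallen regions in the Fkbp5 window numbered 1 with average density, 1 with missing values at the lowest density and 3 with quantile normalization. With missing values at the lowest density 7 rose there, of 23 tested. That setting shifted the median of all regions by 0.11, and the cause was not tested. No fed library was most like the fasted library of its own replicate number (correlations of their deviations -0.067, -0.030 and -0.167). With 3 libraries per group that differ in depth, such correlations cannot show whether the numbers mark pairs. The replicate block gave 5 risen and 2 fallen Fkbp5 regions and 2 risen Mt1 and Mt2 regions. Over all shared regions 1976 to 3212 rose and 2021 to 2738 fell without each replicate, 2535 and 2539 with the block. No centring gave 1946 risen and 3189 fallen regions (37.9% risen, against 50.1%), and the upper 50% by density, with fewer tested, 1401 and 1540. Without each replicate 0 to 3 members were called in fasted livers only (3 without fed replicate 3) and 0 to 1 in fed livers only (1 without fasted replicate 3). No share over all union regions was computed for these settings. In the Sgk1 window 0 of 5 regions passed with missing values at the lowest density. The 2 Sgk1 regions with 5 libraries rest on 15 to 30 tags each, which limits their precision.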

Other observations

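Beyond the left edge of the Fkbp5 window, the shared regions at 28449980 and 28464681 had log2 fold changes of 0.022 and 0.084 and did not pass. Beyond its right edge, by 21.8 kb, the region at chr17:28701767-28703095 fell. Its density was 109, 85.8 and 72.8 in fed and 59.6, 45.2 and 51.8 in fasted replicates 1 to 3, with no overlap between the groups. On the log2 scale the difference was -0.68 (SE 0.16), with an adjusted p of 0.0056 (limma). It is the single region that the wider Fkbp5 window adds to the changed ones, which makes 5 risen and 3 fallen of 15 shared regions. Left of the Mt1 and Mt2 window by 27.0 kb, the strong region at chr8:96621636-96622977 had 77.6 to 87.2 in fed and 76.0 to 88.5 in fasted libraries, with a log2 fold change of 0.074 (adjusted p = 0.79, limma).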
